A study of Homo sapiens with 12 samples.

Results

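The 10 genes described here, ATF4, ATF5, DDIT3, DDIT4, TRIB3, CHAC1, ASNS, SESN2, PSAT1 and PHGDH, are ATF4 and 9 genes that act with or below it in the integrated stress response. They were chosen by symbol, were 10 of the 40173 gene IDs in the expression table, and all 10 were among the 12773 IDs that reached a mean of 2 TPM in a condition and were therefore tested. RNA was sequenced from 624Mel, an established human melanoma cell line, in a design that crossed knockdown of MITF, the master transcription factor of the melanocyte lineage, with interferon gamma (IFNγ), a cytokine of activated lymphocytes. The cells were reverse transfected with control siRNA (siCTRL) or with siRNA against MITF (siMITF), received 5 ng/mL IFNγ or none 24 h later, and were harvested after a further 24 h, with 3 libraries in each of the 4 conditions. All groups therefore went through transfection, the knockdown was transient, and the results describe 1 cell line and no primary melanocytes or tumour.

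In the integrated stress response, several kinases that sense amino acid shortage, unfolded protein in the endoplasmic reticulum, double-stranded RNA or haem deficiency phosphorylate the translation factor eIF2α. General translation then slows, while the mRNA of the transcription factor ATF4 is translated more, so much of ATF4's control lies outside its mRNA level. ATF4 induces a second factor, CHOP (the product of DDIT3), and together they switch on genes for amino acid synthesis and transport, for feedback inhibition and for cell death. CHAC1, one of the genes under ATF4 and CHOP, encodes an enzyme that degrades glutathione.

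Values are TPM, which scale transcript abundance to transcript length and library total, so levels may be compared between genes. Fold changes are given on the log2(TPM + 1) scale, which understates the change of low genes, with the standard error (SE) of 1 limma fit over all 12 libraries. Adjusted p-values are two-sided limma tests with Benjamini-Hochberg correction over all 12773 tested IDs, and a gene is said to have risen or fallen only with an adjusted p under 0.05. In RNA from whole cultures, fewer cells that express a gene and less RNA per cell cannot be told apart.

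MITF itself had 187, 229 and 217 TPM in the siCTRL libraries and 36.0, 49.7 and 41.7 TPM in the siMITF libraries. With IFNγ it had 158, 246 and 243 TPM under siCTRL and 37.5, 55.1 and 51.3 TPM under siMITF. Every library thus matched the siRNA in its label. MITF did not pass with IFNγ under either siRNA, so these values do not check the IFNγ part of the labels. The melanocytic markers MLANA, PMEL, TYR, DCT and SOX10 were present in all conditions, while the leukocyte gene PTPRC, the endothelial gene PECAM1 and the fibroblast gene COL1A1 had means under 1 TPM and the keratinocyte gene KRT5 was at or near 0. The libraries had 11850 to 12377 IDs at 2 TPM or more. Genes of the mitochondrial genome took between 7.42% and 16.9% of TPM, a share higher with IFNγ in each replicate under either siRNA. In replicate 1 it went from 14.2% to 16.9% under siCTRL and from 12.8% to 16.9% under siMITF. A part of this rise in the falls with IFNγ was not tested beyond the fit without mitochondrial genes. In each condition the share was lowest in replicate 2. Replicate 2 also gave the highest of the 3 values in 29 of the 40 combinations of the 10 genes and 4 conditions, and the part of that library difference in the spread was not tested beyond the fits with a replicate block and without mitochondrial genes.

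Promoter sequence was inspected for all 10 genes in the 17 RefSeq windows (GRCh38.p14) that run from 250 bases before to 50 bases after an annotated start. The core of the C/EBP-ATF response element was searched as TGATGNAA on both strands. It was found in 2 of the 10, CHAC1 and ASNS, in 1 window each, against 3.63% of all 34796 windows. The core of the interferon-stimulated response element, GAAA followed by any 2 bases and GAAA again, was also searched on both strands. It occurred in 1 gene, ATF5, in 1 of its windows, against 3.57% of windows. Some genes have several windows, so counts of genes are not on the same base as these shares. The 3 stretches of 30 bases are shown 5′ to 3′ on the gene's strand, with the matched letters in capitals, since CHAC1 is the gene on which the results turn, ASNS carries the same core, and ATF5 was the one gene with the interferon element.
CHAC1, chr15:40953251-40953280, plus strand: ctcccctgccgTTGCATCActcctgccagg
ASNS, chr7:97872458-97872487, minus strand: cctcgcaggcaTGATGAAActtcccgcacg
ATF5, chr19:49928808-49928837, plus strand: aagcaagGAAAGGGAAAGAGAAAtgaactg
The CHAC1 word lay 209 to 202 bases before its RefSeq start and reads TGATGCAA on the other strand, the ASNS word lay 68 to 61 bases before its start, and the capitals in ATF5 hold 2 overlapping matches, with a further match from 7 to 16 bases after its start outside the printed stretch. In GENCODE release 44 each stretch also overlaps an exon of longer transcripts, 1 of 3 for CHAC1, 3 of 17 for ASNS and 1 of 5 for ATF5. The words TGACGTCA (cyclic AMP response element), TTCNNNGAA (gamma-activated site) and CATGTG (M-box core) had no match in the 17 windows, against 1.84%, 7.67% and 11.1% of all windows, and CACGTG (E-box) matched in ATF4 alone, against 7.2%. A match describes letters only, and of the 6 patterns all but TGATGNAA and TGACGTCA were added after expression values were known.

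CHAC1 rose strongly with IFNγ in control cells, and its rise was smaller after MITF knockdown. The siCTRL libraries had 6.78, 8.20 and 6.25 TPM, and those with IFNγ 30.5, 32.8 and 30.8 TPM. The siMITF libraries had 4.58, 5.52 and 3.83 TPM, and those with IFNγ added 6.58, 6.76 and 6.65 TPM. All siCTRL + IFNγ libraries thus stood far above every other library, while the siMITF + IFNγ libraries lay within the range of the untreated siCTRL libraries.

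In siCTRL cells IFNγ raised mean CHAC1 from 7.08 ± 1.01 to 31.4 ± 1.24 TPM (SD, n = 3), a 4.43-fold ratio of means, and its log2 change of 2.01 ± 0.12 (SE; limma adjusted p = 7.24e-08) ranked 151 from the highest of 12773 tested genes. In siMITF cells the mean went from 4.64 ± 0.846 to 6.66 ± 0.0922 TPM, a 1.43-fold ratio, with a log2 change of 0.45 ± 0.12 (limma adjusted p = 0.0180). By the same limma fit, that smaller rise did not pass without siMITF replicate 1 (log2 change 0.45, limma adjusted p = 0.0562) or without siMITF replicate 3 (0.35, limma adjusted p = 0.0805). The rise in siCTRL cells passed in all 23 alternative fits. The difference between the responses, tested as the interaction of siMITF and IFNγ, was -1.56 ± 0.17 on the log2 scale (95% interval -1.92 to -1.19, limma adjusted p = 0.000542). It ranked 9 from the lowest of all tested genes and passed in those alternatives too.

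Seen from the side of the knockdown, CHAC1 fell by 0.52 ± 0.12 on the log2 scale without IFNγ (limma adjusted p = 0.00453) and by more with IFNγ, at -2.08 ± 0.12 (limma adjusted p = 6.05e-08), and neither pair of groups overlapped. In TPM, adding the change due to siMITF alone and the change due to IFNγ alone to the siCTRL mean gives 28.9 TPM, and multiplying the folds gives 20.6 TPM, against 6.66 TPM measured in the combination. Of the other 9 genes PHGDH, the most abundant in siCTRL libraries, had the largest gap in TPM from the sum of single effects. It had 173 TPM measured against 214 TPM. As a ratio DDIT3 departed more, with 36.7 TPM against a sum of 28.9 TPM. The ATF4 mean of 265 TPM stood beside a sum of 285 TPM.

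Over the 10 genes, 1 rose and 4 fell with siMITF in the absence of IFNγ, against 21.0% of all tested genes that rose and 13.8% that fell. With IFNγ present in both arms 2 rose and 5 fell, against 18.4% and 14.7%. IFNγ in siCTRL cells raised 1 and lowered 3, against 6.8% and 6.14% of tested genes, and in siMITF cells it likewise raised 1 and lowered 3, against 7.99% and 12.2%. The interaction passed for 1 gene, CHAC1, lower in the combination, against 0.243% of tested genes with a lower, 0.705% with a higher and 0.947% with either interaction. The median log2 change of the 10 genes was -0.36 and -0.25 for siMITF without and with IFNγ and -0.18 and -0.23 for IFNγ in siCTRL and in siMITF cells, where all tested genes had medians of 0.06, 0.03, -0.07 and -0.10. The knockdown without IFNγ and IFNγ in siCTRL cells share the siCTRL libraries, and the other comparisons share libraries in the same way, so their errors are not independent. Scaling bears on the direction of the background for IFNγ in siCTRL cells, where 868 genes rose and 784 fell. After quantile normalization 1178 rose and 1647 fell, and after median centring 1238 and 1576. Without mitochondrial genes 1155 rose and 1199 fell, of 13032 IDs then tested. The replicate block, which leaves the scaling as it was, gave 1235 and 2046.

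Counted by libraries alone, 2 of the 10 genes were higher and 5 lower without overlap with siMITF, against 33.0% and 22.0% of tested genes, and with IFNγ present 0 were higher and 4 lower, against 21.3% and 17.0%. With IFNγ in siCTRL cells 1 was higher and 4 lower without overlap, against 11.7% and 18.1%, and in siMITF cells 1 was higher and 4 lower, against 12.1% and 28.4%.

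**Figure D1:**
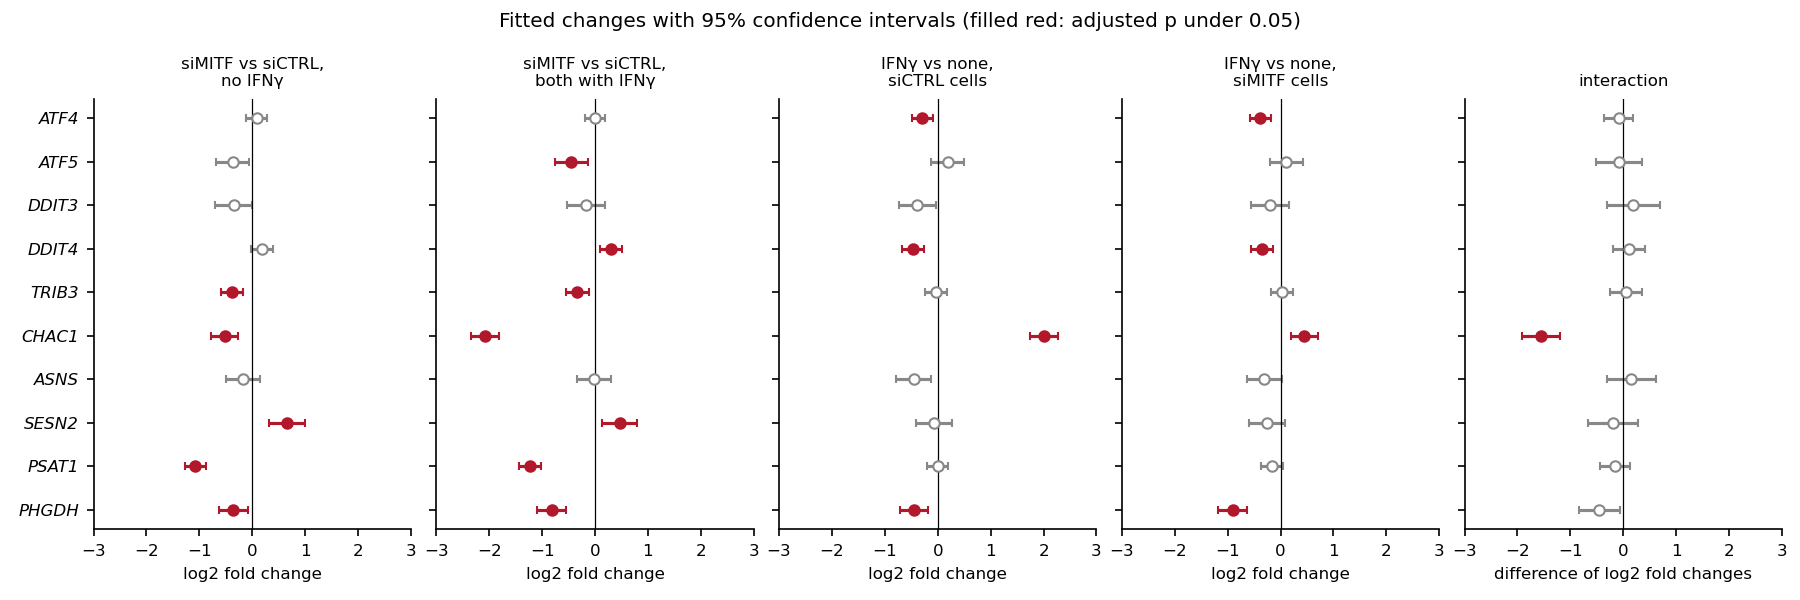
Log2 fold changes of the 10 genes on the log2(TPM + 1) scale with 95% confidence intervals in the 4 comparisons and, at the right, the interaction; filled red points have a limma adjusted p under 0.05 and open grey points do not. CHAC1 holds the extreme values in 3 panels, at -2.08, 2.01 and -1.56, and the largest fall without IFNγ is PSAT1 at -1.07.

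Among the transcription factors, ATF4 was abundant and was lower with IFNγ irrespective of siRNA. The siCTRL libraries held 303, 369 and 309 TPM, against 247, 295 and 257 TPM after IFNγ. The siMITF libraries held 354, 352 and 331 TPM, against 249, 276 and 272 TPM after IFNγ. The IFNγ groups lay below the groups without IFNγ and did not overlap with them under the same siRNA.

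ATF4 fell by 0.38 ± 0.09 on the log2 scale with IFNγ in siMITF cells (limma adjusted p = 0.00976), a call kept in all alternative fits. The fall in siCTRL cells was of similar size, 0.29 ± 0.09, but only just passed (limma adjusted p = 0.0497), and it was lost when any of 10 of the 12 libraries was left out (all but siCTRL + IFNγ replicate 2 and siMITF + IFNγ replicate 1, adjusted p from 0.0533 to 0.202). It was also lost with a pseudocount of 0.1, without the intensity trend, without the filter on low values and with only the conditions compared (adjusted p up to 0.130), while the replicate block gave 0.00481. With siMITF the change was 0.08 (95% interval -0.11 to 0.28) without IFNγ and -0.00 (-0.20 to 0.19) with it, neither of which passed. CHAC1 and ATF4 mRNA thus went in opposite directions with IFNγ in both arms.

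ATF5, a second factor of this response whose mRNA is also under translational control, had 13.7, 12.5 and 13.2 TPM in siCTRL libraries and 10.2, 10.5 and 9.25 TPM in siMITF libraries. With IFNγ it had 13.5, 18.5 and 13.9 TPM under siCTRL and 9.21, 13.7 and 10.0 TPM under siMITF, so the replicate 2 libraries were the highest and the siRNA groups touched. It fell by 0.45 ± 0.14 on the log2 scale with siMITF in the presence of IFNγ (limma adjusted p = 0.0302), a call lost without siCTRL + IFNγ replicate 2, siMITF + IFNγ replicate 1 or siMITF + IFNγ replicate 3 (adjusted p from 0.0932 to 0.112). Without IFNγ the change was -0.37 ± 0.14 (limma adjusted p = 0.0659, or 0.0194 with the replicate block), and it passed in 8 of the 23 alternatives. With IFNγ its log2 changes were 0.19 in siCTRL cells and 0.11 in siMITF cells, and neither passed. Its gene overlaps NUP62 and IL4I1 on the opposite strand, and the library kit does not mark strand.

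DDIT3 had 50.4, 69.4 and 45.2 TPM in siCTRL libraries, 41.1, 47.9 and 35.6 TPM with IFNγ, 45.8, 46.1 and 35.3 TPM with siMITF and 41.1, 34.8 and 34.3 TPM with both. The siCTRL group had the widest spread and overlapped with both single-treatment groups. No comparison passed in the fit without a block, where the largest change was -0.38 ± 0.16 with IFNγ in siCTRL cells (limma adjusted p = 0.154, or 0.0198 with the block), and that with siMITF alone was -0.35 ± 0.16 (limma adjusted p = 0.113, or 0.0158 with the block). DDIT3 overlaps MARS1 and MBD6 on the opposite strand.

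The 3 genes that restrain growth signalling or feed back on the response went different ways. TRIB3, a pseudokinase that inhibits ATF4 activity and AKT, had 99.2, 108 and 96.6 TPM in siCTRL libraries and 75.4, 82.8 and 73.7 TPM in siMITF libraries. With IFNγ the values were 90.2, 108 and 100.3 TPM under siCTRL and 68.7, 84.8 and 83.3 TPM under siMITF. The siRNA groups did not overlap in either arm.

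TRIB3 fell by 0.39 ± 0.10 on the log2 scale with siMITF (limma adjusted p = 0.00796) and by 0.33 ± 0.10 when IFNγ was present (limma adjusted p = 0.0191). The second call was lost without siCTRL + IFNγ replicate 2 or 3 or siMITF + IFNγ replicate 1 (adjusted p from 0.0588 to 0.0666). Its response to IFNγ was -0.03 (95% interval -0.24 to 0.18) in siCTRL cells and 0.02 (-0.19 to 0.24) in siMITF cells.

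DDIT4 (REDD1), an inhibitor of the growth kinase complex mTORC1, had 120.1, 132 and 118 TPM in siCTRL libraries and 83.5, 97.0 and 87.0 TPM with IFNγ. It had 134, 140.3 and 146 TPM in siMITF libraries and 94.0, 115 and 121 TPM with both. IFNγ libraries were lower than the matching libraries without IFNγ, with no overlap under either siRNA. It fell by 0.46 ± 0.10 with IFNγ in siCTRL cells (limma adjusted p = 0.00654) and by 0.35 ± 0.10 in siMITF cells (limma adjusted p = 0.0210), the latter lost without siMITF replicate 2 or 3 or siMITF + IFNγ replicate 1 (adjusted p from 0.0608 to 0.0786). In the presence of IFNγ it rose by 0.29 ± 0.10 with siMITF (limma adjusted p = 0.0328), a call lost without siCTRL + IFNγ replicate 1 or 3 or siMITF + IFNγ replicate 2 or 3 (adjusted p from 0.0887 to 0.125).

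SESN2, a leucine-binding protein that also restrains mTORC1, was the lowest in level of the 10 genes in siCTRL libraries and the one that rose with siMITF alone. It had 4.13, 5.62 and 4.66 TPM in siCTRL libraries and 7.70, 8.97 and 7.72 TPM in siMITF libraries, with no overlap. With IFNγ it had 3.64, 5.62 and 4.48 TPM under siCTRL and 5.33, 7.28 and 7.44 TPM under siMITF, where siMITF replicate 1 fell below siCTRL replicate 2.

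SESN2 rose by 0.66 ± 0.16 on the log2 scale with siMITF (limma adjusted p = 0.00555), in all alternative fits. With IFNγ present it rose by 0.46 ± 0.16 (limma adjusted p = 0.0367), a call lost without siCTRL replicate 3, siCTRL + IFNγ replicate 1 or 3, or siMITF + IFNγ replicate 2 or 3 (adjusted p from 0.0515 to 0.120). A second gene ID without a symbol held the same values as SESN2 in every library, so the reads of both cannot be told apart.

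Among the genes of amino acid synthesis, PSAT1 and PHGDH, 2 enzymes of the serine pathway, fell after MITF knockdown, while ASNS did not pass the test. PSAT1 had 13.9, 13.0 and 13.3 TPM in siCTRL libraries and 6.09, 6.05 and 5.45 TPM in siMITF libraries. With IFNγ it had 12.4, 14.8 and 13.1 TPM under siCTRL and 5.60, 4.89 and 4.95 TPM under siMITF. The siRNA groups were far apart in both arms, while the IFNγ groups overlapped under either siRNA.

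PSAT1 fell by 1.07 ± 0.09 on the log2 scale with siMITF (limma adjusted p = 2.06e-06) and by 1.23 ± 0.09 when IFNγ was present (limma adjusted p = 6.99e-07), and ranked 331 and 225 from the lowest of the tested genes. Both calls passed in all alternative fits. IFNγ changed it by -0.00 (95% interval -0.20 to 0.20) in siCTRL cells and by -0.16 (-0.36 to 0.04) in siMITF cells.

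PHGDH, which catalyses the first step of serine synthesis and was the most abundant of the 10 in siCTRL libraries, had 393, 473 and 386 TPM there and 256, 356 and 308 TPM with IFNγ. It had 290.03, 364 and 319 TPM in siMITF libraries and 158, 182 and 178 TPM with both. The combination lay below every other library of the design. It fell by 0.82 ± 0.13 on the log2 scale with siMITF in the presence of IFNγ (limma adjusted p = 0.000291) and by 0.90 ± 0.13 with IFNγ in siMITF cells (limma adjusted p = 0.000249), in all alternative fits.

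The falls of PHGDH with a single treatment were smaller, 0.36 ± 0.13 with siMITF (limma adjusted p = 0.0412) and 0.45 ± 0.13 with IFNγ (limma adjusted p = 0.0345). The first was lost without siCTRL replicate 1, 2 or 3, siCTRL + IFNγ replicate 3, siMITF replicate 1 or 3, or siMITF + IFNγ replicate 3 (adjusted p from 0.0519 to 0.159). The second was lost without siCTRL replicate 1, 2 or 3, siCTRL + IFNγ replicate 1 or 3, or siMITF replicate 3 (adjusted p from 0.0531 to 0.148). Its interaction of -0.45 ± 0.18 did not pass (limma adjusted p = 0.492) but passed with the replicate block (0.0211) and after median centring (0.0491), either of which brought the genes with an interaction from 1 to 2.

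ASNS, asparagine synthetase, had 23.1, 31.0 and 22.1 TPM in siCTRL libraries and 16.9, 20.0 and 17.3 TPM with IFNγ, with no overlap. It had 24.2, 24.0 and 18.6 TPM in siMITF libraries and 20.2, 18.6 and 14.8 TPM with both. No comparison passed in the limma fit as reported here. The change with IFNγ was -0.46 ± 0.15 in siCTRL cells (limma adjusted p = 0.0688, or 0.0418 after median centring, 0.0335 after removal of mitochondrial genes and 0.00588 with the block) and -0.30 ± 0.15 in siMITF cells (limma adjusted p = 0.179, or 0.0345 with the block), and with siMITF it was -0.17 (95% interval -0.50 to 0.15) without IFNγ. With IFNγ in siCTRL cells ASNS had -0.46, which did not pass, and CHAC1 had 2.01. A part of the promoter core found in both genes was not tested.

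In siCTRL libraries the order of the mean levels was PHGDH (417 TPM), ATF4 (327), DDIT4 (123), TRIB3 (101), DDIT3 (55.0), ASNS (25.4), PSAT1 (13.4), ATF5 (13.2), CHAC1 (7.08) and SESN2 (4.80). The ranges of PSAT1 and ATF5 overlapped, and all other neighbours were separated in these 3 libraries. With IFNγ in siCTRL cells CHAC1 (31.4 TPM) moved above ASNS, PSAT1 and ATF5.

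**Figure D2:**
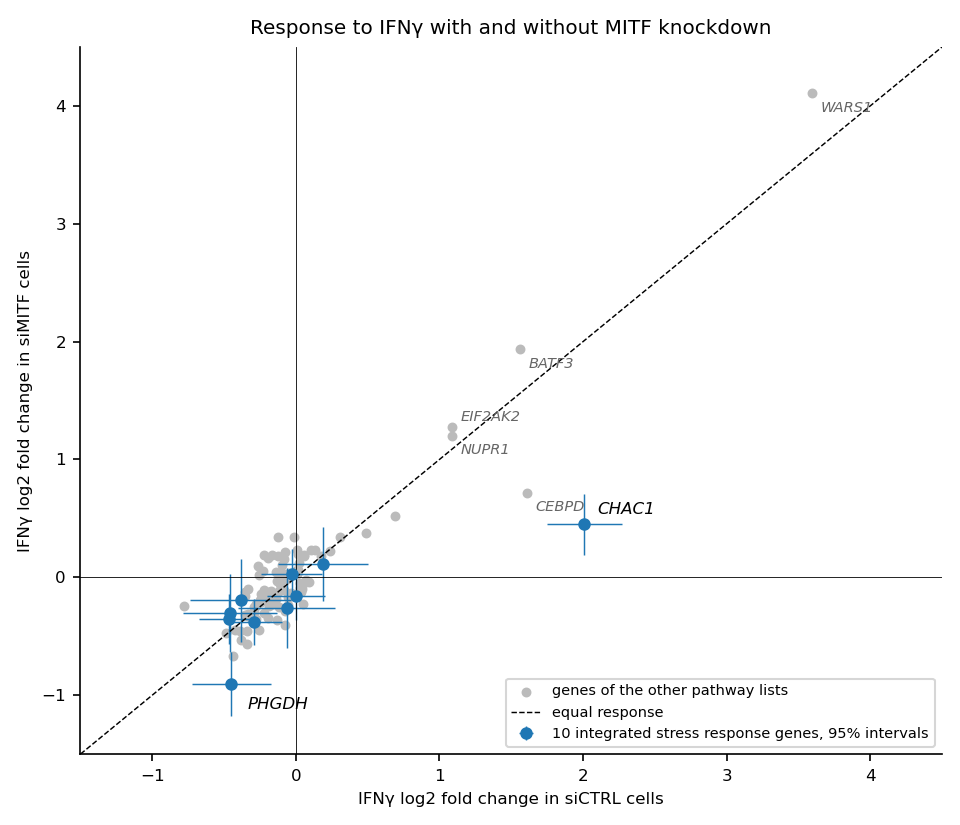
Log2 fold change with IFNγ in siCTRL cells (horizontal axis) against that in siMITF cells (vertical axis), both on the log2(TPM + 1) scale; blue points are the 10 genes with 95% intervals, grey points the tested genes of 8 related pathway lists, and the dashed line marks equal responses. CHAC1 at 2.01 and 0.45 lies far below the line and CEBPD at 1.61 and 0.72 also below it, whereas WARS1, BATF3, EIF2AK2 and NUPR1 lie above it.

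The other parts of the pathway were followed in 8 lists with 108 genes, of which those under a mean of 2 TPM in all conditions were not tested. Among all tested genes, 21.0% rose and 13.8% fell with siMITF, 18.4% and 14.7% with siMITF in the presence of IFNγ, 6.8% and 6.14% with IFNγ in siCTRL cells, and 7.99% and 12.2% with IFNγ in siMITF cells. Each list count is read against these shares. The replicate block also raised the counts over all genes. They went from 2684 higher and 1764 lower to 3684 and 2410 with siMITF, from 2348 and 1881 to 3232 and 2680 in the presence of IFNγ, from 868 and 784 to 1235 and 2046 with IFNγ in siCTRL cells, and from 1020 and 1554 to 1426 and 3130 in siMITF cells. Ranges of list counts over the 23 alternatives keep this order of comparisons.

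Of the 12 genes for eIF2α kinases, phosphatase subunits and eIF2B, 3 rose and 2 fell with siMITF, 3 rose and 1 fell with siMITF in the presence of IFNγ, 1 rose and 1 fell with IFNγ in siCTRL cells, and 1 rose and 2 fell with IFNγ in siMITF cells. EIF2AK2 (PKR), the kinase that senses double-stranded RNA and a known interferon-induced gene, rose by 1.09 ± 0.12 with IFNγ in siCTRL cells and by 1.27 ± 0.12 in siMITF cells on the log2 scale. With siMITF without IFNγ EIF2AK2 fell, with a change of -0.37 ± 0.12 (limma adjusted p = 0.0333). This fall was lost in 6 of 23 alternatives (adjusted p up to 0.141). EIF2AK1 (HRI), the haem-sensing kinase, rose by 0.55 and 0.43 with siMITF without and with IFNγ, and EIF2AK4 (GCN2), the amino acid sensor, rose by 0.35 and 0.25. The latter call was lost in 12 of 23 alternatives (adjusted p up to 0.143), among them leaving out siCTRL replicate 1 or 3, siMITF replicate 1 or 3, siCTRL + IFNγ replicate 1 or 3, or any siMITF + IFNγ library. EIF2AK3 (PERK), the kinase of the endoplasmic reticulum, and PPP1R15A (GADD34), the phosphatase subunit that ends the response, did not pass in the limma fit as reported, with log2 changes between -0.28 and 0.06 and between -0.19 and -0.03. With the replicate block the genes called for IFNγ in siCTRL cells went from 2 to 5. Over all alternatives the 4 counts ran from 3 to 8, from 2 to 6, from 1 to 5 and from 1 to 4.

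Of the 10 basic leucine zipper factors related to ATF4, 3 rose and 1 fell with siMITF and 5 rose and 1 fell with siMITF in the presence of IFNγ. With IFNγ 3 rose and 1 fell in siCTRL cells and 4 rose and 1 fell in siMITF cells. CEBPD, a C/EBP family factor induced in inflammation, averaged 2.90 TPM in control cells, 10.9 TPM after IFNγ, 14.3 TPM after siMITF and 24.2 TPM after both, and rose in all 4 comparisons, by 1.98 and 1.09 with siMITF and by 1.61 and 0.72 with IFNγ. BATF3, a factor of the AP-1 family, rose by 1.56 and 1.93 with IFNγ. JDP2, another AP-1 factor, averaged 0.80 TPM in control cells and 2.12 TPM after siMITF and was tested through the siMITF group alone, so its place among the rises with siMITF supports nothing. ATF3, a stress-induced repressor, rose by 0.73 ± 0.21 with siMITF in the presence of IFNγ (limma adjusted p = 0.0193), a call lost without siCTRL + IFNγ replicate 1, siMITF + IFNγ replicate 2 or 3, or the filter on low values (adjusted p up to 0.0701), and had 0.50 ± 0.21 without it (limma adjusted p = 0.0908, or 0.000804 with the block). With the block the called genes went from 4 to 7 for siMITF without IFNγ. The 4 counts ran over all alternatives from 2 to 7, from 4 to 9, from 2 to 6 and from 2 to 6.

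Of the 17 other targets of ATF4 and CHOP, 13 were tested, since STC2, ADM2, FGF21 and NIBAN1 had means under 2 TPM in each condition. With siMITF 2 rose and 6 fell, and in the presence of IFNγ 0 rose and 4 fell. GDF15, a secreted stress cytokine, averaged 405 TPM under siCTRL and 159 TPM under siMITF and changed by -1.34 ± 0.08 without and -1.26 ± 0.08 with IFNγ (both passing). KLHL24 changed by -0.77 with siMITF and the disulphide oxidase ERO1A by -0.65 with siMITF in the presence of IFNγ, both passing. With IFNγ, 1 rose and 2 fell in siCTRL cells and 1 rose and 3 fell in siMITF cells. NUPR1, a chromatin-binding stress protein, rose by 1.09 and 1.20, while the translation repressor EIF4EBP1 changed by -0.44 and -0.67 and CHAC2, the paralogue of CHAC1, by -0.42 and -0.45, all passing. CHAC1 and CHAC2 thus had opposite signs with IFNγ. With the block the called targets went from 4 to 8 for siMITF in the presence of IFNγ and from 3 to 6 for IFNγ in siCTRL cells. The 4 counts ran over all alternatives from 4 to 11, from 2 to 8, from 3 to 6 and from 3 to 6.

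Of the 11 tested genes of serine, one-carbon, proline and sulphur amino acid synthesis, 2 rose and 2 fell with siMITF. ALDH1L2 had a mean under 2 TPM in each condition and was not tested. In the presence of IFNγ 2 rose and 1 fell with siMITF. With IFNγ 0 rose and 2 fell in siCTRL cells and 0 rose and 4 fell in siMITF cells. PSPH, which completes serine synthesis after PHGDH and PSAT1, rose by 0.27 and 0.28 with siMITF and changed by -0.49 and -0.47 with IFNγ, both passing. Its rise with siMITF was lost without siCTRL replicate 1 or 3 or siMITF replicate 2 (adjusted p up to 0.0707), and that in the presence of IFNγ without siCTRL + IFNγ replicate 3 or with only the conditions compared (adjusted p up to 0.0961). With the block, the called genes went from 2 to 6 and from 4 to 8 for IFNγ in siCTRL and siMITF cells. Over all alternatives the 4 counts ran from 2 to 5, from 1 to 5, from 2 to 6 and from 2 to 8.

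SLC38A1 and SLC6A9 had means under 2 TPM in each condition and were not tested. Of the 9 tested amino acid transporters, 3 rose and 4 fell with siMITF and 3 rose and 3 fell in the presence of IFNγ. With IFNγ in siCTRL cells 0 rose and 1 fell. In siMITF cells IFNγ gave 0 calls by limma, where 3 of the 9 had an unadjusted p under 0.05, and 4 calls with the replicate block, which also took the count in siCTRL cells from 1 to 4. Over all alternatives the 4 counts ran from 3 to 8, from 4 to 8, from 0 to 5 and from 0 to 4. Among the falls with siMITF, SLC1A4 ran from -0.71 to -0.59 over the 23 alternatives without IFNγ and passed in all. SLC7A5 in the presence of IFNγ ran from -0.68 to -0.39 and also passed in all. SLC7A1 fell without and with IFNγ, calls lost in 7 and 2 of the 23 alternatives. Among the rises, SLC1A5, a glutamine transporter, averaged 171 TPM under siCTRL and 404 TPM under siMITF and rose by 1.23 ± 0.06 without and 1.24 ± 0.06 with IFNγ. SLC7A11, the cystine importer that supplies glutathione synthesis, rose by 0.53 ± 0.18 and 1.07 ± 0.18 with siMITF and fell by 0.78 ± 0.18 with IFNγ in siCTRL cells. The fall was lost without siCTRL replicate 2 or the filter on low values (adjusted p up to 0.0669). The rise without IFNγ was lost without siCTRL replicate 1 or 3, siMITF replicate 1, 2 or 3, siCTRL + IFNγ replicate 3, siMITF + IFNγ replicate 3 or the filter (adjusted p up to 0.153), and the rise with IFNγ passed in all alternatives. Its interaction was 0.53 ± 0.26 (limma adjusted p = 0.696).

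CARS1 had a mean under 2 TPM in each condition and was not tested. Of the 19 tested cytosolic aminoacyl-tRNA synthetases, 0 rose and 2 fell with siMITF both without and with IFNγ. These were GARS1 with log2 changes of -1.29 and -1.09 and NARS1 with -0.58 and -0.46. The NARS1 call without IFNγ was lost without siCTRL replicate 2 (adjusted p = 0.0581 by limma), and that with IFNγ was lost in 12 of 23 alternatives (adjusted p up to 0.143), among them leaving out siCTRL replicate 3, siCTRL + IFNγ replicate 2 or 3, siMITF + IFNγ replicate 1 or 3, or any siMITF library. With IFNγ, 1 rose and 2 fell in siCTRL cells and 2 rose and 0 fell in siMITF cells. WARS1, which charges tRNA with tryptophan and is a known interferon-induced gene, went from a mean of 115 to 1410.2 TPM in siCTRL cells and from 100.5 to 1751 TPM in siMITF cells, rises of 3.59 ± 0.12 and 4.11 ± 0.12. With the block the called genes went from 2 to 5 for siMITF in each arm, from 3 to 7 for IFNγ in siCTRL cells and from 2 to 9 in siMITF cells. Over all alternatives the 4 counts ran from 1 to 7, from 1 to 5, from 1 to 7 and from 1 to 9.

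Of the 18 genes of the XBP1 and ATF6 branches, the other arms of the unfolded protein response, 1 rose and 5 fell with siMITF, 2 rose and 3 fell in the presence of IFNγ, and 1 rose and 0 fell with IFNγ under either siRNA. The 2 rises with siMITF in the presence of IFNγ were DNAJB9 and SYVN1. Over the 23 alternatives DNAJB9 ran from 0.48 to 0.70 and passed in all. SYVN1 ran from 0.35 to 0.67 and its call was lost in 7. SDF2L1, an endoplasmic reticulum protein, changed by -0.83 and -0.91 with siMITF, both passing, and CALR, a chaperone of the same compartment, rose by 0.30 and 0.34 with IFNγ. The CALR call in siCTRL cells was lost in 13 of 23 alternatives (adjusted p up to 0.150), among them leaving out siCTRL replicate 1 or 3, siCTRL + IFNγ replicate 2 or 3, siMITF + IFNγ replicate 2 or 3, or any siMITF library. That in siMITF cells was lost without siMITF replicate 1 or 3, siMITF + IFNγ replicate 2 or the filter (adjusted p up to 0.0740). HSPA5 (BiP), the main chaperone of that compartment, did not pass in the limma fit as reported here and had -0.29 ± 0.12 with siMITF (limma adjusted p = 0.0867, or 0.00159 with the block), a change that passed in 6 of 23 alternatives. With the block the called genes of this list went from 6 to 12 and from 5 to 8 for siMITF without and with IFNγ, and from 1 to 2 and from 1 to 6 for IFNγ in siCTRL and siMITF cells. Over all alternatives the 4 counts ran from 3 to 12, from 3 to 8, from 0 to 2 and from 0 to 6.

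Of the 8 mitochondrial protein quality genes, 0 passed with siMITF in either arm by limma, where 1 and 2 had an unadjusted p under 0.05 without and with IFNγ, and the block gave 3 and 2 calls. With IFNγ 0 rose and 1 fell in siCTRL cells and 0 rose and 2 fell in siMITF cells, and the counts ran from 0 to 2 and from 1 to 4 over all alternatives, with 2 and 4 under the block. HSPD1, a mitochondrial chaperonin, had passing changes of -0.28 and -0.24, the first lost with only the conditions compared (adjusted p = 0.0637 by limma) and the second without siMITF replicate 2 or 3 (adjusted p up to 0.0662).

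In the limma fit as reported, 0 genes of the 8 lists had an interaction that passed, against 0.947% of all tested genes. An unadjusted p under 0.05 was found for 2 basic leucine zipper factors, 4 of the 13 other targets and 1 synthetase. It was also found for 2 genes of the XBP1 and ATF6 branches and for 0 of the other lists, against 980 of the 12773 tested genes. With the block 1 gene passed in each of 3 lists, among the basic leucine zipper factors, the other targets and the synthetases. After median centring the interactions of CEBPD, NFE2L2, DNAJC3 and WARS1 passed. That of CEBPD also passed after quantile normalization and after removal of mitochondrial genes. With the block included, it passed in 4 of the 23 alternatives and that of WARS1 in 2. The interaction of CEBPD was -0.89 ± 0.23 (limma adjusted p = 0.131, or 0.00501 with the block) and that of WARS1 0.51 ± 0.17 (limma adjusted p = 0.337, or 0.0112 with the block). The medians of the 8 lists ran from -0.26 for the transporters to 0.24 for the basic leucine zipper factors with siMITF, against 0.06 for all tested genes, and from -0.25 for amino acid synthesis to 0.02 for the basic leucine zipper factors with IFNγ in siCTRL cells, against -0.07.

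**Figure D3:**
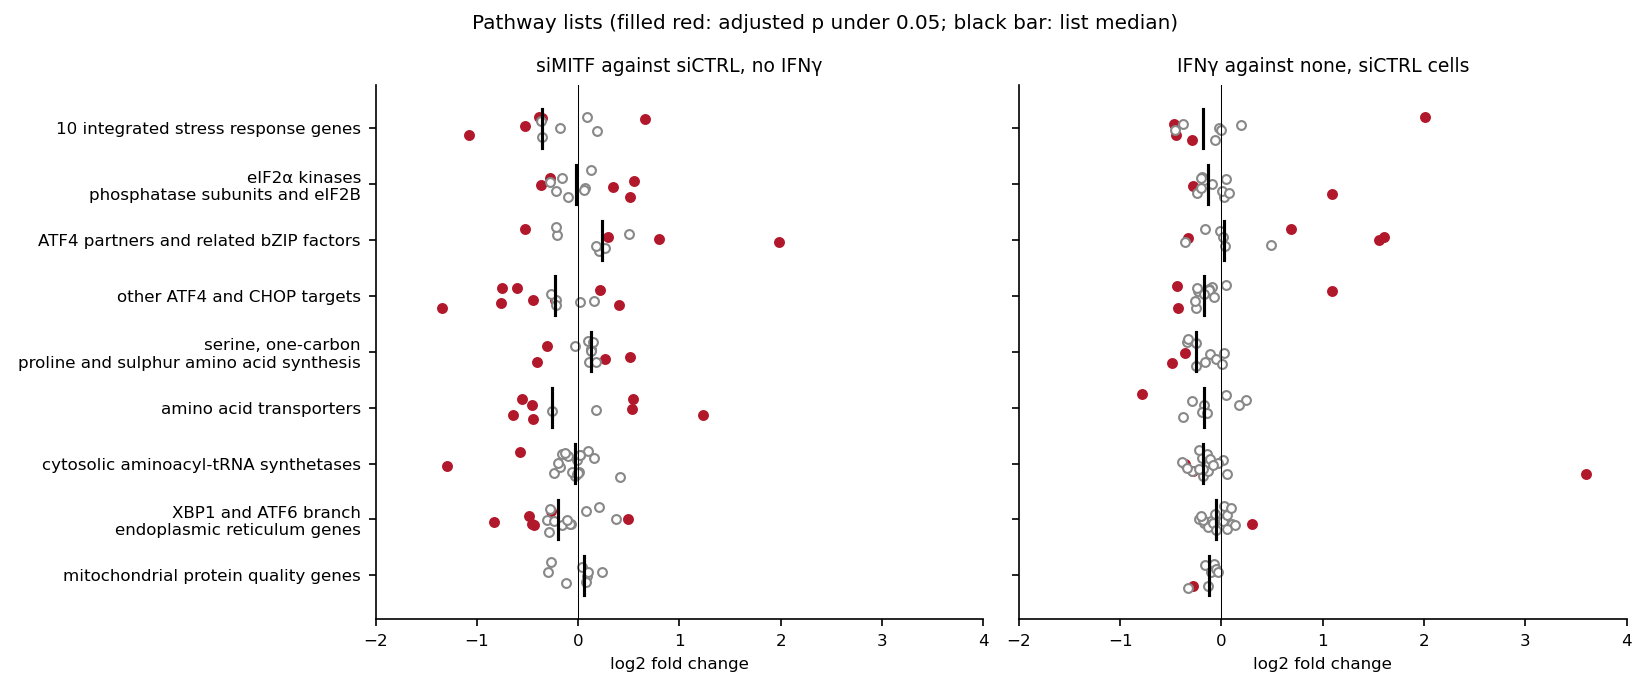
Log2 fold changes (log2(TPM + 1) scale) of the 10 genes and of the tested genes of 8 pathway lists with siMITF without IFNγ (left) and with IFNγ in siCTRL cells (right); each point is a gene, filled red with a limma adjusted p under 0.05, and black bars are list medians. The 10 genes have medians of -0.36 and -0.18, GDF15 and GARS1 mark the low end on the left at -1.34 and -1.29, and WARS1 the high end on the right at 3.59.

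The genes whose pattern was most like that of CHAC1 were found by Pearson correlation of log2(TPM + 1) over the 12 libraries, given as a description, since the points share 4 conditions. The 5 highest were RALA (r = 0.991), a small GTPase, TFAP2A (0.987), a transcription factor of neural crest and melanocytes, SULT1C2 (0.979), a sulfotransferase, C2orf80 (0.969) and WIPF1 (0.968), an actin regulator. RALA averaged 84.0 TPM in control cells, 203 TPM after IFNγ, 65.0 TPM after siMITF and 86.3 TPM after both. SULT1C2 had 3.02, 19.2, 0.476 and 1.82 TPM in the same order. C2orf80 had 0.218, 3.22, 0.0963 and 0.624 TPM. It was tested through its siCTRL + IFNγ group alone, where CHAC1 is also high, so its place here supports nothing. The peak of RALA and SULT1C2 in siCTRL + IFNγ follows from their choice by correlation with CHAC1 and is no separate result. The 10 genes and IDs without a symbol were left out of this search. None of the 5 belonged to the 8 lists. Within the 10 genes the correlation with CHAC1 ran from -0.83 for DDIT4, -0.61 for SESN2 and -0.53 for ATF4 to 0.64 for PSAT1 and 0.73 for ATF5.

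CHAC1 (GRCh38, chromosome 15, 40952962 to 40956512, plus strand) overlaps no other annotated gene. Of the 4 tested genes within 100 kb, DLL4, a Notch ligand, averaged 0.262 TPM in control cells, 2.73 TPM after IFNγ, 0.404 TPM after siMITF and 1.65 TPM after both. It was tested through its siCTRL + IFNγ group alone, where it is high, so its levels are a description. VPS18, INO80 and the pseudogene ISCA1P4 did not pass with IFNγ. These neighbours were examined after the values of CHAC1 were known.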

How the data were processed

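Per the labels and the study's methods, total RNA was made into TruSeq RNA v2 libraries, which do not mark strand, reads were trimmed with Trimmomatic 0.39, and the authors quantified them with kallisto on the Ensembl GRCh38 transcriptome. As deposited, each library has 1 TPM value per gene. How transcripts were summed, and the Ensembl release, are not given in the sources used here. Depth is unknown, so no counting interval is given, and p-values measure the spread between libraries, which the study's methods describe as biological replicates.

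The members, lists and tests were chosen with earlier results of these data known. Gene IDs were named with GENCODE 44. TPM were transformed as log2(TPM + 1), IDs with a mean of 2 TPM or more in a condition were kept, and limma 3.58.1 (R 4.3.3) was fitted with 1 coefficient per condition and an intensity trend. The fit was tested on simulated data. The text names all 10 genes and MITF, genes from among the 2 largest passing rises and 2 largest passing falls of each list and comparison, EIF2AK1, EIF2AK2, EIF2AK3, EIF2AK4, PPP1R15A, ATF3, SLC7A11, WARS1 and HSPA5 whatever their values, and the 5 genes most correlated with CHAC1. The 18 pairs of libraries with 1 replicate number in different conditions had correlations of their deviations of 0.10 to 0.63 (median 0.28). The 36 other pairs had a median of -0.20. Libraries with the same number were thus related, and a fit with a replicate block was added as 1 of the alternatives. The fit reported in the text, its SEs and the fits with a library left out have no block and ignore this pairing. Tables and figures used pandas 2.3.3 and matplotlib 3.10.9 under Python 3.11.15. The 23 alternatives were other pseudocounts, filters, thresholds, scalings and fits and each library left out in turn.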

Additional observations from a re-analysis of the deposited data

Results flagged for a closer look

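The response of CHAC1 to IFNγ differed between the siRNA arms by the test of the difference itself. Its log2 change with IFNγ was 2.01 in siCTRL cells and 0.45 in siMITF cells, an interaction of -1.56 (limma adjusted p = 0.000542), and all 3 libraries rose above the matching libraries without IFNγ in each arm. The interaction did not pass for the other 9 genes in the limma fit as reported, and PHGDH passed with the replicate block and after median centring. Groups of 3 libraries were not searched for outlying samples.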

How the results depend on the processing

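Of 483 alternative values of the passing gene results, 416 kept direction and side of the threshold, 67 kept direction only and 0 reversed. The number of passing genes for siMITF with IFNγ went from 7 to 4 without a filter on low values, to 3 with only the conditions compared and to 3 at an adjusted p under 0.01. For IFNγ in siCTRL cells it went from 4 to 2 under each of those 3 settings, and for IFNγ in siMITF cells from 4 to 2 at the stricter threshold. The interaction went from 1 gene to 2 with median centring and with the replicate block, both adding PHGDH. Beyond the gene calls given with the block in the text, it changed no other call of the 10 genes. The cause of these differences was not tested. With 1 library left out, the numbers ran from 4 to 6 and from 4 to 7 for siMITF without and with IFNγ, from 2 to 4 for IFNγ in each arm and stayed at 1 for the interaction.

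Changes of sign arose only in values that did not pass. ATF4 with siMITF in the presence of IFNγ became 0.0194 after quantile normalization and 0.0180 after removal of mitochondrial genes. TRIB3 with IFNγ in siCTRL cells became 0.00566 after quantile normalization, and PSAT1 in that comparison became 0.00515, 0.0153 after median centring and 0.0199 after removal of mitochondrial genes. With 1 library left out, ATF4 with siMITF and IFNγ ran from -0.0542 to 0.0722 and ASNS from -0.11 to 0.10. With IFNγ in siCTRL cells TRIB3 ran from -0.0902 to 0.0395, SESN2 from -0.20 to 0.0619 and PSAT1 from -0.0664 to 0.0486, and in siMITF cells ATF5 ran from -0.0462 to 0.22 and TRIB3 from -0.0294 to 0.12. The interactions ran from -0.24 to 0.0566 for ATF5 and from -0.0148 to 0.15 for TRIB3. Over all genes, the block raised the passing interactions from 90 higher and 31 lower to 175 and 101, and the median log2 change over all tested genes moved between -0.13 and 0.10 across alternatives.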
